A study of Equus caballus with 19 samples.

Results

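The HOX genes were described in 19 RNA sequencing libraries of equine tenocytes. Members were taken by name as every gene called HOXA, HOXB, HOXC or HOXD followed by a number only, which gave 38 of the 29196 gene names in each of 2 tables, 11 from the HOXA cluster and 9 each from HOXB, HOXC and HOXD. All 38 names were found in the RefSeq gene table of the horse, where they sit in 4 clusters on 4 chromosomes. HOXB4 was not analysed here. The cells were wild-type tenocytes of the superficial digital flexor tendon (SDFT), the resident fibroblasts of the tendon that carries much of the load of the equine lower limb, grown as 8 independent lines that, per the study's methods, were isolated after death from adult Thoroughbred horses of differing ages. Every construct was a gel of bovine type 1 collagen kept in medium with fetal bovine serum and harvested at day 14. Where IL-1β, an inflammatory cytokine, was given, its dose was 1 nM, and IL1Ra, the natural antagonist of the IL-1 receptor, was given at 100 ng/ml together with IL-1β. Batch 1 held lines 1 to 5, each as an untreated control and as an IL-1β culture, which gave 5 libraries per group. Batch 2 held lines 6 to 8, each as an untreated control, an IL-1β culture and an IL-1β + IL1Ra culture, which gave 3 libraries per group. There was 1 library per line and condition, so a line is the replicate. The labels did not give the limb, the age of the horse or the passage of each line.

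HOX genes encode homeodomain transcription factors that give cells their position along the body axis and, in limbs, along the axis from shoulder or hip to the digits. Within a cluster the low position numbers are used towards the head and the trunk and the high numbers towards the tail, and in the limb bud the HOXA and HOXD genes of the highest numbers mark the far end of the limb. Fibroblasts taken from adult tissue keep much of the HOX pattern of the site they came from when they are grown in culture.

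Levels are DESeq2-normalised counts, which are not divided by gene length, so the HOX genes were not put in an order of level. Cluster shares, and remarks that a gene was high or low beside another, are in counts and also depend on gene length. Each batch was normalised on its own and was tested on its own. The normalised counts of a library summed to between 43393903 and 49197980 in batch 1 and between 24964149 and 34602014 in batch 2, and the HOX genes made up 0.0175% to 0.0642% of them. A value of 0 is given as listed at 0, because EIF2S2, a translation factor gene that every cell uses, was also listed at 0 in 3 of 10 libraries of batch 1 and 6 of 9 of batch 2. The collagen genes COL1A1 and COL1A2 had at least 40715 counts in every library, and the 10 tenocyte and fibroblast markers summed to 190484 to 1926611, but TNMD, a marker of mature tendon cells, was at 0 or 1.0 in every library. The 3 libraries of line 8 stood apart from all others in their HOX pattern, and the HOX calls and the line test calls of batch 2 are therefore given with and without this line. The labels give line 8 the same tissue as the other lines, and whether its cells came from the same site was not tested. Because these are bulk cultures, fewer cells of a type and less RNA per cell cannot be told apart.

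In the control libraries of batch 1, the tenocytes used the HOXA and HOXD clusters, and the HOXB and HOXC clusters were near or at 0. Of the 38 members, 17 reached 10 normalised counts in at least 5 libraries of batch 1, and these were 10 of 11 HOXA genes and 7 of 9 HOXD genes, with 0 of 9 HOXB and 0 of 9 HOXC genes. HOXA9 to HOXA11 pattern the upper and middle limb. HOXA9 had 781, 1271, 1144, 1213 and 1174 normalised counts in the control libraries of lines 1 to 5. HOXA10 had 2269, 2028, 2552, 1983 and 2312 in the same libraries. HOXA11 had 1413, 1061, 1249.6, 1104 and 1143. All 5 lines were close to each other for HOXA10 and HOXA11, and line 1 was lowest for HOXA9. HOXA13, the last gene of its cluster and a marker of the far limb, had 631, 474, 1037, 709 and 581. The 5 lines were thus within a range of 474 to 1037 for HOXA13, with line 3 highest. HOXD13, its counterpart at the end of the HOXD cluster, had 2160.1, 2346, 4105, 3449 and 2981 in the same control libraries, again with line 3 highest. HOXD10 had 1499, 1902, 4458, 4825 and 2843 in lines 1 to 5. For HOXD11 the values were 1264, 1313, 3408, 2043 and 1692. Lines 1 and 2 were the 2 lowest for both genes, and lines 3 and 4 the 2 highest. At the other end of the clusters the levels of single genes were low. HOXA2 had 7.02, 9.60, 16.8, 19.4 and 9.87 in lines 1 to 5. HOXD1 was at 0 to 2.88 in the control libraries and HOXD3 at 0 to 7.66. HOXD8 had 859.8, 847, 1058, 980.3 and 953, the narrowest range on the log2 scale of the HOXD genes that passed the filter. In the HOXB cluster the highest value in any of the 10 libraries was 4.78 (HOXB2), and HOXB1, HOXB5, HOXB6, HOXB7, HOXB8 and HOXB13 were listed at 0 in all 10. In the HOXC cluster HOXC6 was at 23.2, 15.8, 0, 5.0 and 2.79 in the control libraries. HOXC5 was at 9.62, 17.5, 0.930, 4.82 and 1.10, so that both were highest in lines 1 and 2, and HOXC12 was listed at 0 throughout.

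**Figure D1:**
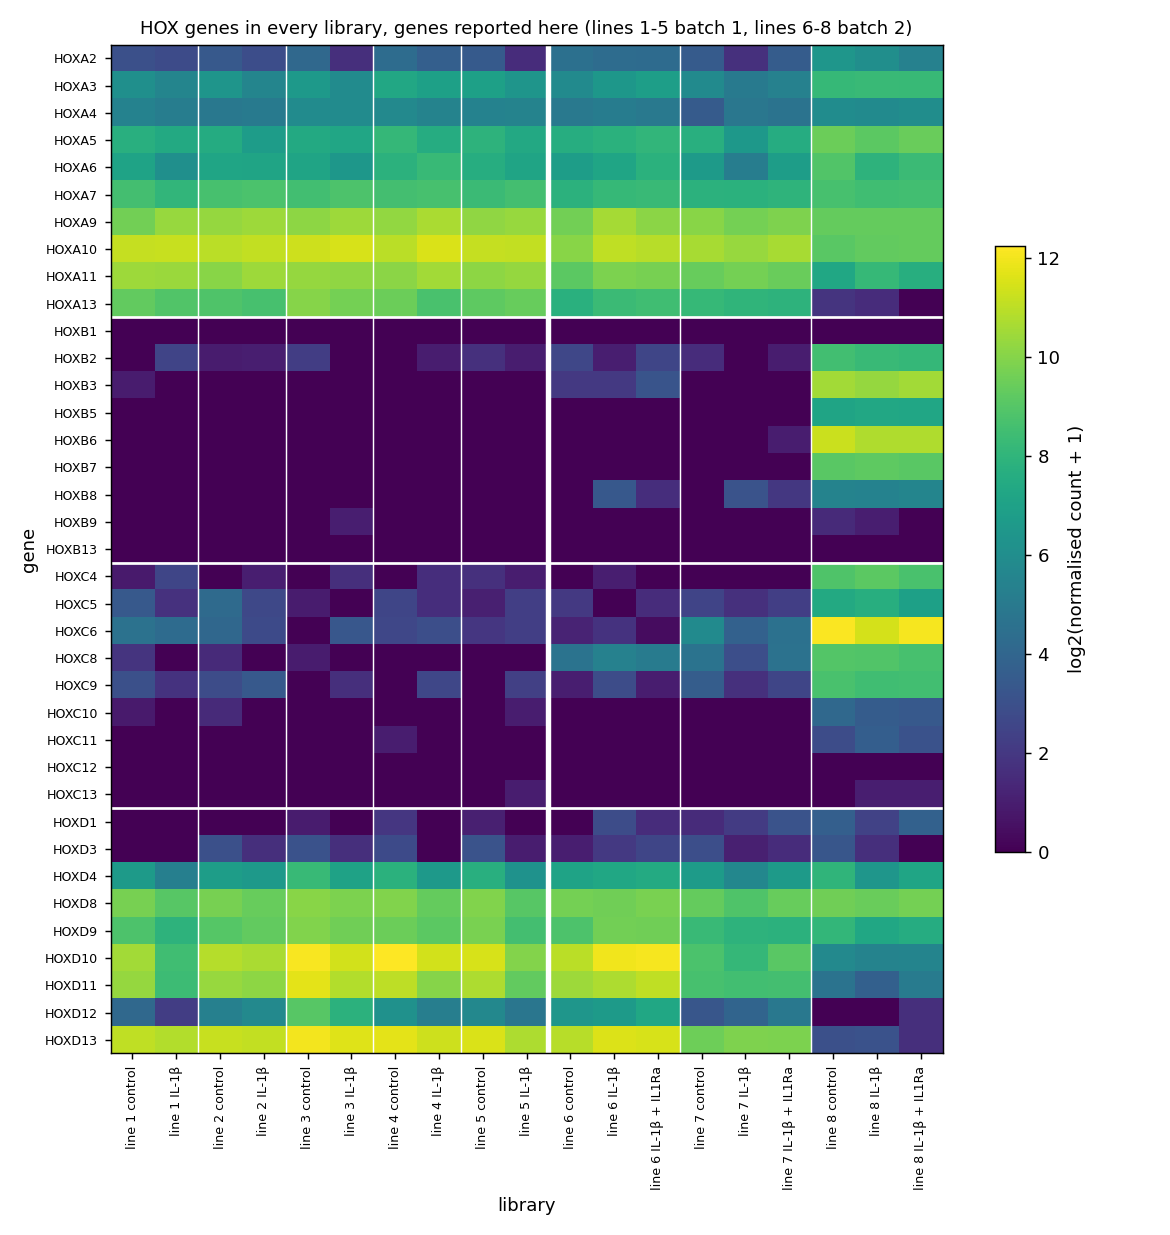
HOX genes in every library. Each row is a gene reported here, in cluster and position order, each column a library, and the colour is log2(normalised count + 1); white lines separate clusters, lines and, as the thick line, the batches. HOXB and HOXC genes were dark in lines 1 to 7 with few exceptions. HOXB2, HOXB3, HOXB5 to HOXB8 and HOXC4 to HOXC9 were brighter in the 3 libraries of line 8. In these libraries HOXC10 and HOXC11 were dim, and HOXB1, HOXB9, HOXB13, HOXC12 and HOXC13 were dark. HOXA13 and HOXD10 to HOXD13 were darker in line 8 than in lines 6 and 7.

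In batch 2, HOXA and HOXD made up nearly all HOX counts of lines 6 and 7, in differing shares, and line 8 had another pattern. In line 6 the HOXD cluster took 64.9% to 68.2% of all HOX counts of a library and the HOXA cluster 31.5% to 34.7%. In line 7 these shares were 38.0% to 41.2% for HOXD and 58.0% to 60.6% for HOXA. HOXB and HOXC made up at most 0.127% (HOXB) and 1.37% (HOXC) in lines 6 and 7. In line 8 the HOXC cluster took 34.4% to 39.1%, HOXB 29.2% to 32.3%, HOXA 21.6% to 25.5% and HOXD 7.82% to 8.68%. In batch 1 the HOXB share was 0% to 0.05% and the HOXC share 0.009% to 0.359% of the HOX counts, so that line 8 was the only line of the 8 with HOXB or HOXC as a large part of its HOX counts. HOXB1, HOXB13 and HOXC12 were listed at 0 in all 19 libraries.

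**Figure D2:**
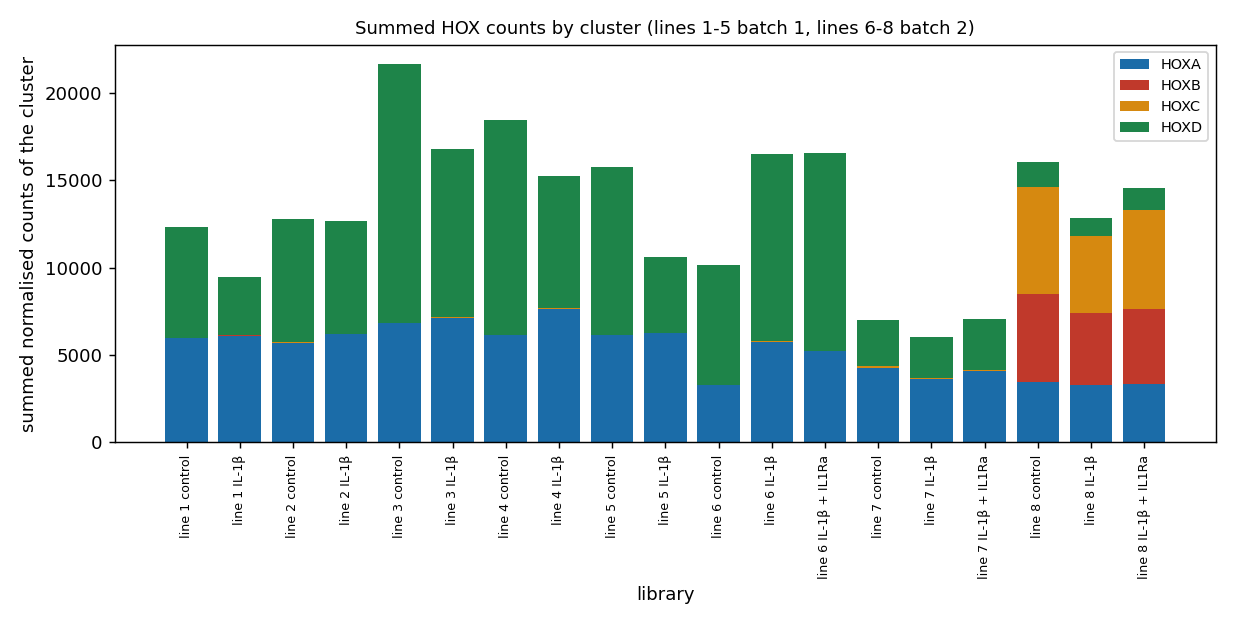
Summed normalised counts of each HOX cluster per library. Each bar is a library and its coloured parts are the sums over the members of the HOXA, HOXB, HOXC and HOXD clusters, with batch 1 (lines 1 to 5) and batch 2 (lines 6 to 8) normalised separately. HOXA and HOXD made up nearly the whole bar in lines 1 to 7, and HOXB and HOXC made up more than their sum in line 8.

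HOXB genes of the middle of the cluster had high counts in line 8 and were at or near 0 in lines 6 and 7. HOXB6 had 2454, 1781 and 1737 normalised counts in the control, IL-1β and IL-1β + IL1Ra libraries of line 8, against 0, 0 and 0 in line 6 and 0, 0 and 0.970 in line 7. Against a floor of 3 normalised counts, the lowest library of line 8 was at least 579-fold higher than the libraries of lines 6 and 7. HOXB3 had 1473, 1257 and 1482 in line 8 and 3.05, 3.09 and 7.92 in line 6, and was listed at 0 in the 3 libraries of line 7. HOXB7 had 556, 594 and 549.9 in line 8. HOXB5 had 139, 162 and 149. Both were listed at 0 in all 6 libraries of lines 6 and 7, at least 183-fold and 46.3-fold lower. HOXB2 had 364, 309.9 and 286 in line 8, where lines 6 and 7 reached at most 5.05. HOXB8 was lower, at 43.5, 42.2 and 46.6 in line 8 and up to 9.29 in lines 6 and 7, and HOXB9 was at 0 to 1.74 in line 8. The HOXB genes of middle position thus had counts in line 8 in each of the 3 conditions, and HOXB1, HOXB9 and HOXB13, at the ends of the cluster, were at or near 0.

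In the HOXC cluster of line 8, HOXC6, which is used in the chest region and upper forelimb of embryos, had 4554, 2778 and 4349.9 normalised counts in the 3 conditions, against 1.30, 2.43 and 0.320 in line 6 and 56.0, 13.1 and 22.8 in line 7. HOXC4 had 472, 569.7 and 423 in line 8 and at most 1.06 in lines 6 and 7. HOXC9 had 427, 357 and 372 in line 8, 1.01, 6.17 and 0.990 in line 6 and 11.4, 2.19 and 4.83 in line 7. HOXC8 had 505, 479 and 403 in line 8, 24.1, 40.3 and 33.1 in line 6 and 24.3, 6.78 and 23.2 in line 7, so that it was the one HOXC gene with over 10 counts in line 6. HOXC5 ran from 124 to 200.2 in line 8 and from 0 to 4.75 in lines 6 and 7. Towards the end of the cluster the values of line 8 were lower, with HOXC10 at 16.6, 10.7 and 9.58 and HOXC11 at 6.10, 11.7 and 7.46 in line 8, and HOXC13 at 0 to 1.07. HOXC10 and HOXC11 were listed at 0 in all libraries of lines 6 and 7.

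At the far-limb end of the HOXA and HOXD clusters line 8 was the lowest line. HOXD13 had 6.87, 7.51 and 2.14 normalised counts in line 8, against 1948, 3105 and 2886 in line 6 and 753, 943 and 913 in line 7. HOXA13 had 2.53, 1.95 and 0 in line 8, 217, 324 and 359 in line 6 and 293, 254 and 243 in line 7, at least 72.4-fold lower in line 8 than in any other library of the batch. HOXD11 had 24.1, 12.7 and 32.6 in line 8, 1376, 1719.9 and 2126 in line 6 and 402, 372 and 387 in line 7. Line 6 was thus the highest line for HOXD11 and HOXD13. HOXD10 had 53.7, 43.7 and 44.8 in line 8, 2029.6, 4065 and 4309 in line 6 and 435, 280.0 and 557 in line 7. HOXD12 had 0, 0 and 2.11 in line 8, 85.7, 101 and 153 in line 6 and 8.55, 14.2 and 28.9 in line 7. In all 5 genes the 3 libraries of line 8 lay below all 6 libraries of lines 6 and 7. HOXA11 was also lowest in line 8, with 155, 290.1 and 205 against 572 to 916 in lines 6 and 7, and HOXA10 with 544, 637 and 659 against 1055 to 2147. HOXA9 came closest, with 644 to 645 in line 8 and 781 to 1513 in the other lines.

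From low to high position number, the difference between line 8 and the mean of lines 6 and 7 passed from higher to lower within the HOXA cluster. On the log2 scale it was 2.30 for HOXA2, 2.34 for HOXA3, 1.64 for HOXA6, 0.55 for HOXA7, −0.65 for HOXA9, −1.82 for HOXA11 and −6.99 for HOXA13. The sign changed between HOXA7 and HOXA9. In HOXA2 to HOXA7 all 3 libraries of line 8 were above all 6 others, for example HOXA3 with 296, 317 and 298 against 32.5 to 115 and HOXA5 with 722, 561 and 684 against 91.0 to 267. In the HOXD cluster the differences were 0.38 for HOXD4, 0.11 for HOXD8, −1.04 for HOXD9, −4.59 for HOXD10 and −7.98 for HOXD13. HOXD4, HOXD8 and HOXD9 overlapped between line 8 and the other lines, and HOXD10 to HOXD13 did not. Of the 38 members, the 3 libraries of line 8 were all above the other 6 in 20 and all below them in 8. For line 6 these counts were 5 and 1, and for line 7 0 and 5.

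**Figure D3:**
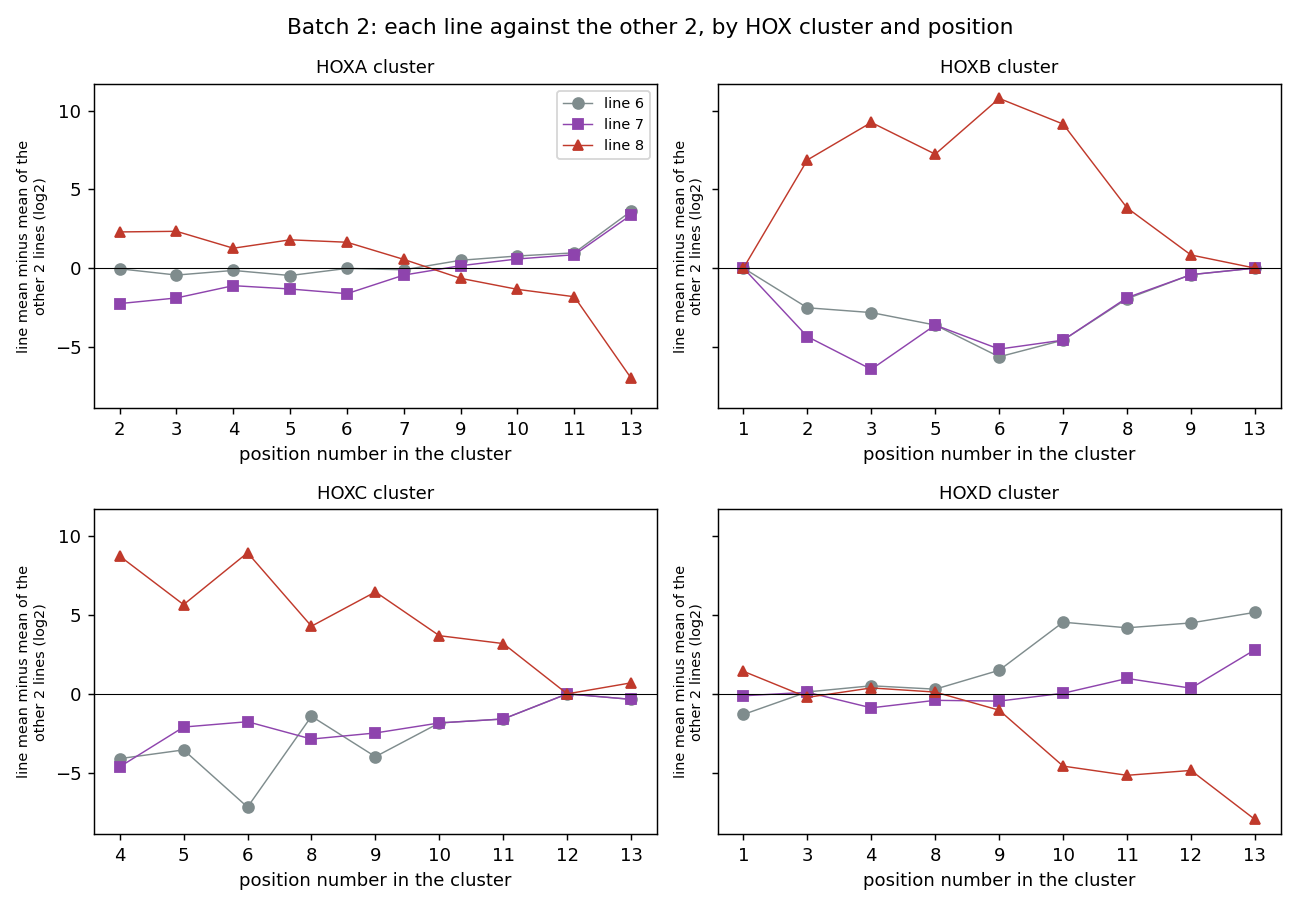
Each line of batch 2 against the other 2, by cluster and position number. The vertical axis is the mean log2(normalised count + 1) of a line over its 3 libraries minus the mean of the other 2 lines, and the horizontal axis gives the position numbers of the genes reported here. In HOXA the points of line 8 (triangles) run from 2.30 at HOXA2 to −6.99 at HOXA13, and in HOXD from values near 0 at HOXD4 and HOXD8 to −7.98 at HOXD13.

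A test of the line was made with limma, as the F test of the line term beside the condition on the log2 scale (1 added to each normalised count), and p-values were adjusted by Benjamini and Hochberg's method over every gene tested. A gene was called different between lines where the adjusted p was under 0.05 and the line means ranged over at least 1 on the log2 scale. In batch 2, 24 of the 29 HOX genes tested were called, where 15.0% of all genes tested were called. However, 10 of the 29 passed the filter on low values only because of line 8 (among them HOXB2, HOXB3, HOXB5, HOXB6, HOXB7, HOXB8, HOXC4, HOXC5 and HOXC9), so these had to differ. Of the 19 that also passed without line 8, 14 were called in the same fit, where 14.5% of such genes were called. The 5 genes tested and not called were HOXA4, HOXA7, HOXA9, HOXD4 and HOXD8. The range of the line means was 8.77 for HOXD13 (limma adjusted p 1.06e-04), 7.07 for HOXA13 (limma adjusted p 3.46e-04) and 10.77 for HOXC6 (limma adjusted p 1.69e-04). At the other extreme of the called genes, HOXA10 had a range of 1.41 (limma adjusted p 0.0122) and HOXD9 of 1.69 (limma adjusted p 0.0226). The libraries of a line share the horse, the isolation and the passage, and these cannot be told apart.

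Without line 8, lines 6 and 7 still differed in 5 of 19 HOX genes, HOXC6 and HOXD10 to HOXD13, where 9.07% of all genes were called. HOXD10 was higher in line 6 than in line 7 by 3.01 on the log2 scale (limma adjusted p 0.00752), HOXD11 by 2.15 (limma adjusted p 0.00750), HOXD12 by 2.76 (limma adjusted p 0.0163) and HOXD13 by 1.58 (limma adjusted p 0.0107). HOXC6 was higher in line 7 by 3.62 (limma adjusted p 0.0320), on counts of at most 56.0. HOXA10, HOXA11 and HOXA13, which had differed through line 8, differed by only 0.12, 0.08 and 0.16 between lines 6 and 7 (limma adjusted p 0.819, 0.852 and 0.782). Over these 19 genes the line held a median of 87.4% of the sum of squares with 3 lines and 59.1% with lines 6 and 7 alone, against 43.6% and 33.1% over all genes that passed in the same way. The condition held 3.50% and 16.0% in the HOX genes and 20.1% and 27.1% in all genes.

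In batch 1 a single HOX gene was called different between the lines. HOXD12, a gene of the far limb, was the 1 of 17 called in the line test, which is close to the 4.02% of all genes that were called. It had a range of 5.29 between line means (limma adjusted p 0.0287). Its control libraries of lines 1 to 5 had 16.6, 39.4, 528, 72.5 and 51.5 normalised counts and its IL-1β libraries 3.60, 52.4, 234, 37.2 and 27.3. Line 3 was highest and line 1 lowest in both conditions. The call was lost when line 1, 3, 4 or 5 was left out (limma adjusted p 0.0614 to 0.127). Without line 2, HOXD4, HOXD10, HOXD11 and HOXD12 were called. The share of all genes called in that fit is not given here, so no HOXD pattern is read from these 4 calls. HOXD10 had the next widest range among the HOXD genes, 2.28 (limma adjusted p 0.0601), and HOXA11 the narrowest of all members tested, 0.21. The SDs of the 17 HOX genes over the control lines had a median of 0.386 on the log2 scale, against 0.283 over all 14719 genes tested.

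Transcription factors that act with or beside the HOX genes in the limb were read from lists chosen for their roles. TBX4 and PITX1 are used in the hindlimb bud and TBX5 in the forelimb bud. TBX4 was listed at 0 in all 3 libraries of line 8, and had 185, 87.0 and 162 normalised counts in the control, IL-1β and IL-1β + IL1Ra libraries of line 6 and 97.8, 64.6 and 54.7 in those of line 7. TBX5 had 359, 269 and 325 in line 8, 619, 596 and 603 in line 6 and 2184, 814 and 864 in line 7, and so was present in every line. PITX1 had 129, 45.5 and 24.3 in line 8, 4.10, 0 and 0 in line 6 and 18.6, 7.34 and 1.97 in line 7. In the control libraries of batch 1, TBX4 had 539.7, 333, 244, 597 and 508 in lines 1 to 5. TBX5 had 647, 403, 1819, 349 and 562. PITX1 had 426, 669, 0.930, 525 and 384. Line 3, the line with the most HOXD12, had the lowest PITX1 and the highest TBX5 of the control libraries. The line test called 12 of 14 limb patterning factors, 7 of 14 retinoic acid genes, 2 of 8 HOX cofactors (among them MEIS2, which binds DNA together with HOX proteins) and 1 of 30 Polycomb and Trithorax genes in batch 2, where 15.0% of all genes were called. The 2 limb factors not called were GLI3 and TBX15. Without line 8 these counts were 4 of 13 (MEOX2, SALL4, SHOX2 and TBX3), 5 of 12, 1 of 8 and 1 of 30 (PCGF5), where 9.07% of all genes were called. TBX4 and TBX5 were tested without line 8 and were not called. PITX1 was too low in lines 6 and 7 to be tested without line 8. PITX1 and the retinoic acid gene ALDH1A1 passed the filter in batch 2 only because of line 8, so these had to differ. In batch 1 the counts of called genes in these lists were 3 of 14 (PITX1, EN1 and MEOX2), 1 of 13, 1 of 8 (MEIS3) and 0 of 30, where 4.02% of all genes were called. The tendon transcription factors SCX and MKX also differed between the lines of batch 2. MKX was at 11.5, 16.8 and 52.8 in line 8, 151, 10.5 and 121 in line 7 and 4059, 1024 and 3062 in line 6. SCX was at 105, 13.6 and 10.5 in line 8, 266, 43.5 and 30.2 in line 7 and 4720.0, 278 and 1523 in line 6, so that both were highest in the line with the most HOXD10 to HOXD13.

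Markers of other cell types also differed with the line in batch 2. The 5 skeletal muscle genes summed to 196 to 659 normalised counts in line 8, 73.1 to 1696 in line 7 and 5.22 to 353 in line 6. ACTA1 had 209, 73.6 and 67.1 and CKM 53.0, 20 and 12.6 in line 8, against at most 25.7 and 2.06 in lines 6 and 7. MYOD1 and MYF5 were at 0 to 6.43 in line 8 and listed at 0 in the others. DES overlapped between the lines and was not called (limma adjusted p 0.194). It had 393, 93.8 and 131 in line 8, 1696, 71.9 and 81.1 in line 7 and 326, 2.07 and 77.3 in line 6. The 8 leukocyte genes summed to 293 to 734 in line 8, 217 to 3039 in line 7 and 1267 to 1603 in line 6, with PTPRC at 0 to 6.46. The 5 endothelial genes summed to 15.2 to 31.3 in line 8 and 26.5 to 47.5 in lines 6 and 7, and the 5 epithelial genes to 5.33 to 12.1 in line 8 and 4.44 to 112 in lines 6 and 7. The line test called SCX and MKX of 9 tenocyte genes tested, ACTA1 and CKM of 3 muscle genes, CD14 and CD68 of 2 leukocyte genes, CDH1 of 1 epithelial gene and 0 of 2 endothelial genes in batch 2, where 15.0% of all genes were called, and 0 in each of these lists in batch 1, where 4.02% were. Without line 8 it called SCX and MKX of 9 tenocyte genes and CD68 of 2 leukocyte genes, and none of the 1 muscle, 1 epithelial and 2 endothelial genes then tested, where 9.07% of all genes were called. ACTA1 and CKM passed the filter on low values in batch 2 only because of line 8, so these had to differ. The part of other cell types in the HOX differences was not tested.

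The first treatment comparison asked how 14 days of IL-1β altered the tenocytes of lines 1 to 5. The 7 HOXD genes tested all had lower means with IL-1β, while the 10 HOXA genes were split, with 4 higher and 6 lower. The median log2-fold change (Log2FC) was −0.91 over the HOXD genes, −0.07 over the HOXA genes and −0.0034 over all 14719 genes tested. A differentially expressed (DE) gene had a limma adjusted p under 0.05 and a Log2FC of at least 1 in size. None of the 17 HOX genes was DE in the fit without the line, where 12.8% of all genes were DE, and 4 of 17 had an unadjusted p under 0.05 where 39.5% of all genes had. With the line as a block, 3 of 17 were DE, all lower (HOXD4, HOXD10 and HOXD11), where 10.2% of all genes were DE and lower and 16.2% were DE in either direction. With 17 genes, the 3 called were close to this background.

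HOXD4 had 101, 112, 305, 224 and 207 normalised counts in the control libraries of lines 1 to 5 and 37.3, 93.0, 131, 93.1 and 73.6 with IL-1β. It was lower in 5 of 5 lines, with a Log2FC of −1.13 (SE 0.398, limma adjusted p 0.0570; with the line as a block SE 0.216, limma adjusted p 0.00702). HOXD10 had 361, 1668, 2661, 2669.6 and 998 with IL-1β, against the control values given above. Its Log2FC was −1.07 (SE 0.552, limma adjusted p 0.178; with the block 0.255 and 0.0157), and it was lower in all 5 lines, least in line 2. HOXD11 had 336, 1124, 1799, 1034 and 635 with IL-1β, a Log2FC of −1.09 (SE 0.427, limma adjusted p 0.0822; with the block 0.224 and 0.00920). The ratio of the same line ran from −1.91 in line 1 to −0.22 in line 2 for HOXD11 and from −2.05 to −0.19 in the same lines for HOXD10. Control and IL-1β libraries of different lines overlapped for all 3 genes. HOXD8 had 528, 677, 894, 649 and 527 with IL-1β, with a Log2FC of −0.54 that was under the size needed although its adjusted p was the lowest of the 17 (SE 0.154, limma adjusted p 0.0239). HOXD13 had 1803, 2230.5, 3166, 2544 and 1684, a Log2FC of −0.39 (limma adjusted p 0.200). HOXD9 and HOXD12 were lower in 4 of 5 lines and higher in line 2 (Log2FC −0.48 and −0.91, limma adjusted p 0.309 and 0.572). HOXD9 overlaps both HOXD10 and HOXD11 in the RefSeq annotation, so reads of shared sequence may have been split between it and them.

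Among the HOXA genes, HOXA9 had 1288, 1399.6, 1410.2, 1653 and 1294 normalised counts with IL-1β in lines 1 to 5. All 5 values were above the 5 control values, with a Log2FC of only 0.35 (SE 0.140, limma adjusted p 0.0881). HOXA10 and HOXA11 had Log2FC of 0.19 and 0.16 (limma adjusted p 0.261 and 0.277). HOXA3 and HOXA5, genes of the anterior part of the cluster, were lower in 5 of 5 lines, with Log2FC of −0.59 and −0.45 (limma adjusted p 0.231 and 0.145; with the block 0.0237 and 0.0385). HOXA13 had 487, 408, 814, 427 and 663 with IL-1β and a Log2FC of −0.30 (limma adjusted p 0.411), with line 5 the one line that was higher. The sign of the Log2FC of the 7 HOXD genes and of HOXA3, HOXA5, HOXA9, HOXA10, HOXA11 and HOXA13 was kept under both other scalings of the libraries and without each line in turn. HOXB and HOXC genes were not tested in batch 1 because all were too low, and with IL-1β the highest of them was HOXC6, at 18.6, 5.70, 9.01, 6.75 and 3.81.

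**Figure D4:**
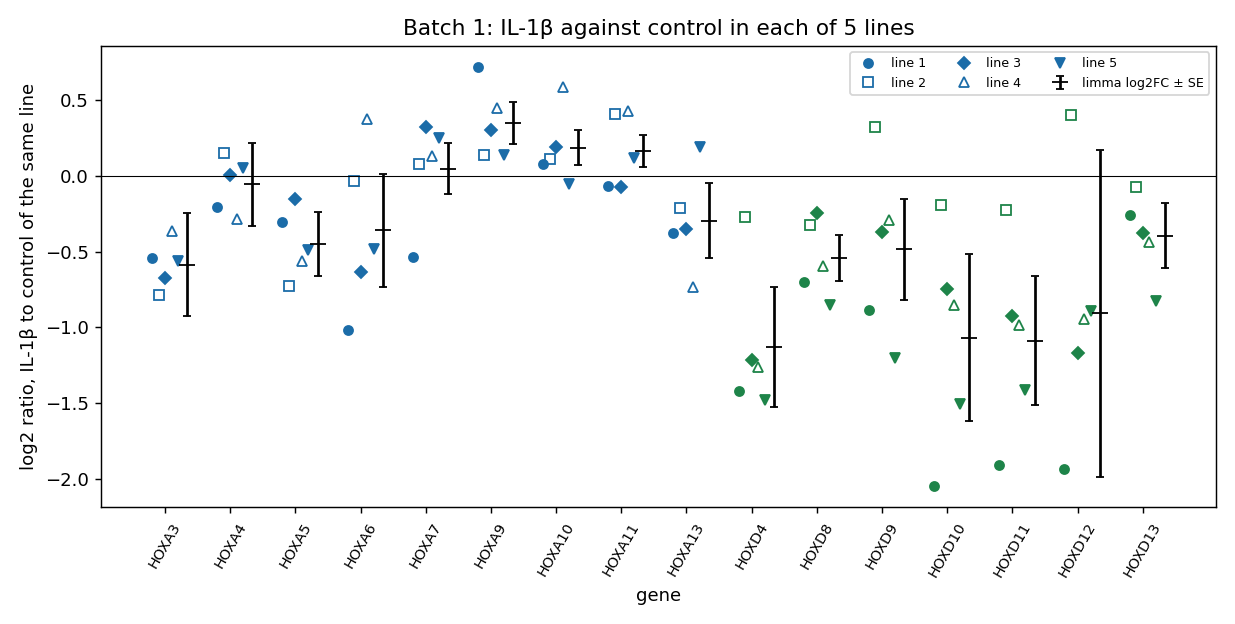
IL-1β against control in each line of batch 1. Points are the log2 ratio of the IL-1β to the control library of the same line for the tested HOX genes reported here (HOXA blue, HOXD green, one symbol per line), and the bars are the limma Log2FC ± SE in the fit without the line. All points of HOXD4, HOXD8, HOXD10, HOXD11 and HOXD13 lie below 0 and those of HOXA9 above 0, and the points of line 2 are the ones nearest to or above 0 in HOXD4, HOXD10 and HOXD11.

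The genes that act around the HOX system were read with IL-1β in batch 1 beside the 12.8% of all genes tested that were DE. Among 8 HOX cofactors tested, PKNOX2 was higher (Log2FC 1.43, limma adjusted p 0.0410) and 0 were lower. Among 14 limb patterning factors, TBX3 was higher (1559 to 7318 counts in the controls and 7497 to 11817 with IL-1β, limma adjusted p 0.0217) and TBX4 lower (Log2FC −1.15, limma adjusted p 0.0180), and TBX5 and PITX1 had Log2FC of −0.60 and −0.79 (limma adjusted p 0.320 and 0.764). Among 30 Polycomb and Trithorax genes, whose products keep HOX clusters silent or active, PCGF5 alone was DE (−1.74, limma adjusted p 0.00220), at 2807, 2487, 5533, 4279 and 3213 in the controls and 874, 998, 1615, 1515 and 604 with IL-1β. Among 13 retinoic acid genes, the binding protein CRABP1 (−6.39, limma adjusted p 3.17e-04) and the retinal reductase DHRS3 (−1.06, limma adjusted p 0.0444) were lower, and RDH10, which oxidises retinol, was higher (1.17, limma adjusted p 0.00845). The median Log2FC of these lists was 0.29, −0.21, 0.13 and −0.63. Markers of other cells moved with IL-1β as well: the 5 skeletal muscle genes summed to 1079 to 2216 in the controls and 31.5 to 191 with IL-1β, nearly all of it DES, with MYOD1 at 0 to 3.20, CKM at 0 to 2.10 and MYF5 listed at 0. The 5 epithelial genes summed to 1419 to 3913 and 31.1 to 546, nearly all CDH1, with EPCAM at 0 to 1.21. The 8 leukocyte genes summed to 58.3 to 2033 and 309 to 3658, mostly CD68 and CD14, with PTPRC at 0 to 3.64, and the 5 endothelial genes to 22.8 to 50.2 and 17.5 to 91.0. Of these, DES, CDH1 and CD68 were tested and DE, DES and CDH1 lower and CD68 higher, and 0 of 2 endothelial genes were DE. Of 9 tenocyte and fibroblast genes tested, COL1A1, COL1A2, THY1, SCX and MKX were DE and lower. The matrix proteoglycan genes LUM and DCN and the receptor gene PDGFRA of the same list were higher in 5 of 5 lines without reaching the size needed (Log2FC 0.91, 0.73 and 0.75, limma adjusted p 0.0109, 0.0626 and 0.0131). The part of these changes in the HOXD values was not tested.

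In batch 2, IL-1β was compared with control, IL-1β + IL1Ra with control, and IL-1β with IL-1β + IL1Ra, to see how blocking the receptor altered the response. The first 2 comparisons share their control libraries. None of the 29 HOX genes tested was DE by limma in any of the 3 comparisons, where 0.341%, 0.0120% and 0% of all 16705 genes were DE. The number with an unadjusted p under 0.05 was 0 of 29 in each of them, where 11.4%, 5.67% and 2.78% of all genes had one. With the line as a block it was also 0 DE in each, where 5.18%, 0.251% and 0.00599% of all genes were DE, and 3, 1 and 1 of 29 had an unadjusted p under 0.05. Without line 8, 0 of 19 HOX genes were DE in each comparison, and 0 genes in all. No gene of the HOX cofactor, limb patterning, Polycomb and Trithorax or retinoic acid lists was DE in the 3 comparisons, and with the block MEOX1 and PCGF5 were lower with IL-1β (Log2FC −3.48 and −1.84, limma adjusted p 0.00530 and 0.00880). In line 8 the high HOXB and HOXC values and the low HOXA13 and HOXD10 to HOXD13 values stood in the control, the IL-1β and the IL-1β + IL1Ra library alike.

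The HOXD genes of batch 2 did not move alike in the 3 lines. HOXD4 had 137, 106 and 259 normalised counts in the control libraries of lines 6, 7 and 8, 158, 50.2 and 84.6 with IL-1β and 177, 102 and 144 with IL-1β + IL1Ra. It was lower with IL-1β in lines 7 and 8 and higher in line 6 (Log2FC −0.82, SE 0.501, limma adjusted p 0.613; with IL1Ra −0.18). HOXD8 had 830.1, 642 and 757 in the controls, 761, 469.6 and 694 with IL-1β and 869, 679.9 and 808 with IL-1β + IL1Ra. All 3 lines were lowest with IL-1β alone, by a Log2FC of −0.23 against control (SE 0.226, limma adjusted p 0.810) and of −0.32 against IL-1β + IL1Ra (limma adjusted p 1.000). The ratio of IL-1β to control of the same line was 1.00, −0.63 and −0.29 on the log2 scale for HOXD10 in lines 6, 7 and 8, and 0.32, −0.11 and −0.88 for HOXD11. Line 6 was thus higher with IL-1β in both genes and lines 7 and 8 lower, on counts of at most 53.7 and 32.6 in line 8. HOXD13 was higher with IL-1β in 3 of 3 lines (Log2FC 0.37, SE 3.26, limma adjusted p 0.985), where line 8 was at 2.14 to 7.51 counts. In these comparisons the SE and adjusted p of single HOX genes come from the fit without the line. The spread between lines counts as error in that fit, and for HOXD13 the line held 98.79% of the sum of squares.

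HOXA9 and HOXA10 were higher in line 6 in both treated conditions, with log2 ratios to control of 0.95 and 1.02 with IL-1β and 0.51 and 0.85 with IL-1β + IL1Ra, and lower in line 7, by −0.40 and −0.27 and by −0.20 and −0.01. HOXA11 was higher than control in 3 of 3 lines with IL-1β (Log2FC 0.62, SE 0.751, limma adjusted p 0.857) and with IL-1β + IL1Ra (Log2FC 0.34, limma adjusted p 1.000). HOXA5 had 198, 208 and 722 in the controls of lines 6 to 8, 224, 91.0 and 561 with IL-1β and 267, 189 and 684 with IL-1β + IL1Ra. In all 3 lines the IL-1β library was below the IL-1β + IL1Ra library for HOXA5, and the same held for HOXA6, HOXA7, HOXD4, HOXD8, HOXD10, HOXD11 and HOXD12, with limma adjusted p of 1.00 in each. For HOXD12 in line 8 this rested on 0 against 2.11 counts. HOXA11 and HOXD13 were higher with IL-1β than with IL-1β + IL1Ra in all 3 lines. The share of all genes with the same sign in all 3 lines was not counted, so no pattern is read from these signs. The median Log2FC over the 11 HOXA and 7 HOXD genes was 0.05 and −0.13 with IL-1β against control, 0.17 and 0.08 with IL-1β + IL1Ra against control, and −0.04 and −0.37 for IL-1β against IL-1β + IL1Ra, beside −0.0084, 0.0095 and −0.0088 over all genes. With the libraries rescaled to the same sum, the median over all genes moved to −0.19, −0.07 and −0.11 in these comparisons, and the Log2FC of the HOX genes moved with it. HOXB6 and HOXC6 of line 8 had their lowest value with IL-1β + IL1Ra and with IL-1β respectively, and with 1 library per condition these differences within a line have no replicate.

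**Figure D5:**
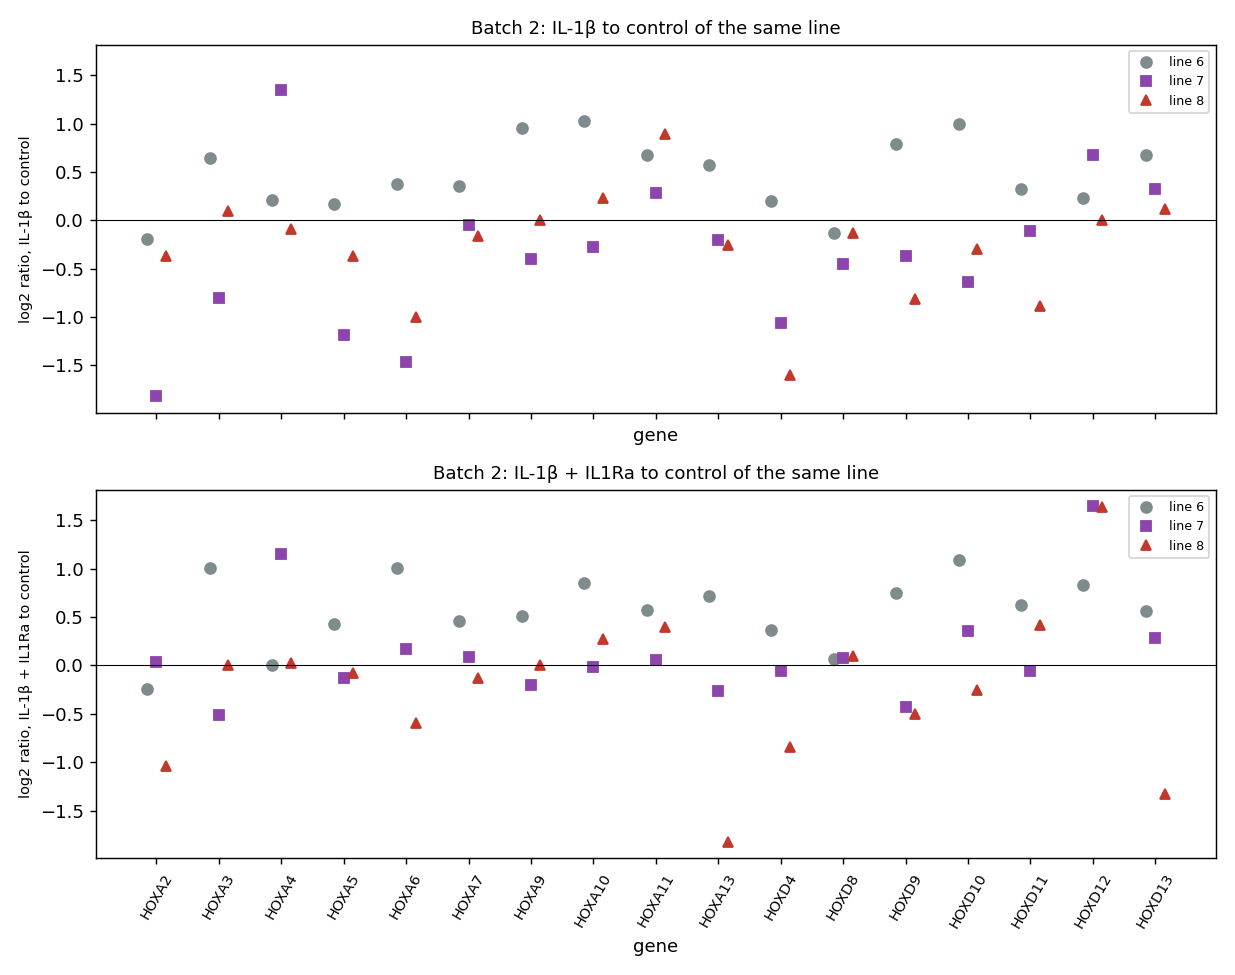
HOXA and HOXD genes of batch 2 in each line. Points are the log2 ratio of the IL-1β library (top) or the IL-1β + IL1Ra library (bottom) to the control library of the same line, for lines 6 to 8. Line 6 lies above 0 for nearly every gene with IL-1β and lines 7 and 8 lie on both sides, and the ratios of HOXA13, HOXD12 and HOXD13 in line 8 rest on at most 7.51 normalised counts.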

How the data were processed

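RNA sequencing data of 19 libraries were used as 2 tables of signal values, which the authors deposited as DESeq2-normalised counts per gene, made from Salmon transcript estimates against EquCab3.0; the submitters' notes name DESeq2 1.36 and R 4.2.1. The batches were normalised separately, so each was analysed alone. Low values came out as whole multiples of 1 read in only 78.5% to 86.2% of cases per library (tolerance 0.1), so the values were not turned back into reads, and count-based tests were left out. Depth in reads is therefore unknown, and summed normalised counts stand in for it.

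Values were analysed as log2(normalised count + 1) with limma 3.58.1 in R 4.3.3 (eBayes with trend, Benjamini-Hochberg adjustment), after a filter that asked for a normalised count of 10 or more in 5 libraries (batch 1) or 3 libraries (batch 2). A fold change on this scale understates the change of low genes. DE meant an adjusted p under 0.05 and a Log2FC of at least 1 in size. SE is the standard error of the Log2FC. The fit was repeated with the donor line as a block, since libraries of a line come from the same donor per the labels: their deviations from the group means correlated at 0.351 to 0.578 (5 pairs, batch 1) and 0.535 to 0.794 (9 pairs, batch 2), against −0.356 to 0.288 and −0.625 to 0.249 between lines. Folds against libraries at or near 0 used a floor of 3 normalised counts per library. The scripts were tested on simulated data. Alternatives were other pseudocounts, filters and scalings, eBayes without trend, the adjusted p alone, the block, leaving out each line, and, chosen after seeing the data, the genes that also passed without line 8 and the line test of the lists without line 8.

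Members were taken by name, and the members and all lists (HOX cofactors, limb patterning, Polycomb and Trithorax, retinoic acid, and tenocyte, leukocyte, endothelial, epithelial and skeletal muscle markers) were chosen with earlier results of these data known. HOX genes were named with values where they were called in a comparison or a line test, were among the 5 with the largest range between control libraries, or were at 0 in every library; with over 20 called, the 8 with the largest change in each direction were given in every library. Other HOX genes, and SCX, MKX and the marker genes, were added after their values were seen. List genes were named where called, and TBX4, TBX5 and PITX1 in any case. Gene lengths were not used here, so the planned order of levels per length was not made. In the RefSeq gene table of another assembly, 17 of the 38 members overlap another HOX gene (HOXA3 with HOXA4, HOXA5 and HOXA6, HOXA5 with HOXA6, HOXB3 with HOXB5 and HOXB6, HOXB8 with HOXB9, HOXC4 with HOXC5, HOXC6, HOXC8 and HOXC9, and HOXD9 with HOXD10 and HOXD11), and their reads may have been divided between genes. A few genes are counted in these totals but are not reported by name here.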

Additional observations from a re-analysis of the deposited data

Results flagged for a closer look

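Of 38 groups of 5 libraries examined for a library far from the others, 2 had a gap above 0.71 of the whole range of the group, where chance gives about 1 in 20. HOXA9 in the control libraries of batch 1 was lowest in line 1, at 781 normalised counts, and the gap to the next line was 0.784 of the range. PITX1 was lowest in line 3, at 0.93, with a gap of 0.906 of the range.

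HOXD13 was lower with IL-1β in 5 of 5 lines of batch 1 (Log2FC −0.394) and higher in 3 of 3 lines of batch 2 (Log2FC 0.371). Neither change passed the test in its batch, the batches were normalised separately, and the difference between them was not tested.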

How the results depend on the processing

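Of 86 repeats of the 8 counts and control summaries, 76 gave the same number or one close to it, 4 a higher and 6 a lower one. A count has no direction, so none could be reversed. Without the filter on effect size, 1 of 17 HOX genes passed in batch 1 (HOXD8), where 4078 of all 14719 genes tested passed. With the line as a block (the pairing of libraries by donor) 3 of 17 were DE, all lower, where 10.2% of all genes were DE and lower. The block changed no other call of a count. Leaving out each line in turn gave 0 DE HOX genes each time for IL-1β against control in batch 1 and in all 3 comparisons of batch 2. The number of HOX genes with 10 or more normalised counts in every control library was 16 (16 to 17 when 1 line was left out) in batch 1 and 15 (15 to 17) in batch 2. The number of HOX genes that differed between lines in batch 1 was 2 with eBayes without trend (HOXA3 and HOXD12). It was 0 to 4 when 1 line was left out, 0 without line 1, 3, 4 or 5 and 4 without line 2. The shares of all genes called in these fits of batch 1 are not given here, so no pattern is read from the number of HOX genes. In batch 2 it was 5 to 22: 22 of 28 without line 6, 21 of 29 without line 7 and 5 of 19 without line 8. The fit without line 8 called 9.07% of all genes, and the shares of the other fits are not given here. The fits without line 6 or 7 also held HOXB and HOXC genes that passed the filter only through line 8 and so had to differ. Over the genes that also passed without line 8, an alternative chosen after seeing the data, it was 14 of 19. There 14.5% of such genes were called. HOXD9 was called in batch 2 only with all 3 lines, with a limma adjusted p of 0.0520 to 0.306 when 1 was left out. The cause of these changes was not tested, beyond the fewer samples and genes in such fits. Of 450 repeats for single genes, 433 kept their call, 5 gained and 12 lost it, and 0 were reversed. Only a Log2FC could be reversed, because the range of the line means in the line test has no sign.

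With 3 lines in batch 2, and 1 library per line and condition, differences between conditions in the HOX genes rest on few libraries. Values below about 10 normalised counts, which hold HOXA13, HOXD12 and HOXD13 in line 8 and most HOXB and HOXC genes in lines 1 to 7, give no usable ratio between conditions. The donor, site of origin, limb, isolation and passage of a line cannot be told apart, and nor can the batch and its lines.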

Other observations

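In line 8, 81 of the 29196 genes (0.277%) had at least 10 normalised counts in all 3 libraries and fewer than 10 in every library of lines 6 and 7, and 8 of these were HOX genes. In line 6 the number was 108 (0.37%) and in line 7 it was 21, with 0 HOX genes in each. Over batch 1, the line held a median of 55.5% of the sum of squares of the 17 HOX genes tested and the condition 25.4%, against 48.7% and 27.7% over all genes tested.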
